A study of Mus musculus with 12 samples.

Results

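The genes described here are 6 members of the mouse Ly6 family that encode small surface proteins: Ly6a (Sca-1), Ly6c1, Ly6c2, Ly6e, Ly6d and Ly6k. They were taken by symbol from the 55401 genes of the series, and the family was chosen by the measured levels of Ly6a, which were low after TGF-β1 and came back in part with the supernatants, so the levels in those groups describe the choice and carry no test. Of the 6 genes, 4 passed the filter on low values (FPKM, a level scaled to gene length and library depth, not under 1 in 3 or more libraries), as did 12016 genes in all. Ly6c2 passed through the untreated libraries alone, and Ly6d and Ly6k did not pass.

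The libraries came from bone marrow mesenchymal stem cells (MSCs) of C57BL/6 mice, with no genetic change, in 4 groups of 3. MSCs were left untreated, or received TGF-β1 at 5 ng/mL for 24 h, TGF-β1 in the culture supernatant of monocytic myeloid-derived suppressor cells (TGF-β1/M-MDSC), or TGF-β1 in the supernatant of granulocytic ones (TGF-β1/G-MDSC). All but the untreated MSCs thus received TGF-β1, and no group received a supernatant without it. The suppressor cells had been sorted by the antigens Ly6C and Ly6G, which belong to the same family, and the MSCs by the study's own account carried Sca-1. Poly(A) RNA was sequenced, and nothing in the sources used here says that the libraries of a group came from separate cultures, so the tests measure the spread between these libraries, which may be technical.

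Ly6 proteins share a compact disulfide-rich fold, the three-finger or LU domain, and most are held in the outer leaflet of the plasma membrane by a glycosylphosphatidylinositol (GPI) anchor. Many Ly6 genes lie side by side on mouse chromosome 15, where copies have arisen by duplication, and several respond to interferons. Sca-1 is the classic mouse marker of haematopoietic stem cells and is also used to isolate MSCs and fibroblast progenitors. Ly6C is known from monocytes and from some endothelial and T cells, and LY6E from its part in restricting or favouring the entry of viruses.

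The 6 genes lie on chromosome 15 of GRCm38. Ly6d (74762056 to 74763620), Ly6k (74796874 to 74799986), Ly6a (74994877 to 74998031), Ly6c1 (75044018 to 75048830) and Ly6c2 (75108158 to 75111970) are on the minus strand, and Ly6e (74955051 to 74959905) is on the plus strand. Their coding sequences ran from 384 bases in Ly6d to 465 bases in Ly6k. Ly6c1 and Ly6c2 were 97.7% identical over 396 aligned columns, Ly6a was 82% identical to Ly6c1 and 81.7% to Ly6c2, and Ly6e was 53.1% identical to Ly6a. The first 120 coding bases of the 3 close relatives, from the GENCODE transcripts Ly6c1-201, Ly6c2-201 and Ly6a-201, are shown because they set how well reads can tell these genes apart. Capitals mark bases that differ from Ly6c1, 6 of them in Ly6c2 and 8 in Ly6a.
Ly6c1: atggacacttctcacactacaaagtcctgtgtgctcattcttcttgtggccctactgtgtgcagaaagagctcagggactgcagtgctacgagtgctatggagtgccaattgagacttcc
Ly6c2: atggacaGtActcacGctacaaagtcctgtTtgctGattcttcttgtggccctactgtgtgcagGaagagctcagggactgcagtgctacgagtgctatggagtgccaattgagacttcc
Ly6a: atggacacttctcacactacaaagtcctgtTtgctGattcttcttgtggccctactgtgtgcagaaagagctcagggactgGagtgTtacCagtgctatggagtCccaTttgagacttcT

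Sequence windows shared between transcripts of different genes were counted to see where the counting could split reads. Of the 50-base windows of Ly6c1 transcripts, 32.8% also occurred in another gene, against 19% for Ly6a, 14.5% for Ly6c2 and 0% for Ly6e. Of windows of 150 bases, the length of a read, 2.29% of Ly6c1 and 1.42% of Ly6c2 were shared, between those genes, and 0% of Ly6a and Ly6e. The values of Ly6c1 and Ly6c2 are therefore uncertain where a read fell in a shared stretch, and those of Ly6e are free of this limit.

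Promoter windows of RefSeq (GRCm38.p6, 300 bases around the start, most of them before it) were matched for 2 of the 6 genes, Ly6c1 and Ly6c2, and are shown because both genes were low in every group that received TGF-β1. The Ly6c1 window lies at chr15:75048788-75049087 and the Ly6c2 window at chr15:75111922-75112221, both on the minus strand, and they were 62.3% identical over 334 aligned columns. Capitals mark the SMAD box (CAGACA on either strand).
Ly6c1: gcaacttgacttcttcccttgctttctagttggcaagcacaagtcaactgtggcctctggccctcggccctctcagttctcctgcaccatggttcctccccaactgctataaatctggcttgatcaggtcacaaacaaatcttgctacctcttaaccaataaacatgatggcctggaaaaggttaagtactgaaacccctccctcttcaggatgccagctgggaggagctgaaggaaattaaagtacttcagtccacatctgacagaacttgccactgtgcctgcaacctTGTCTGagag
Ly6c2: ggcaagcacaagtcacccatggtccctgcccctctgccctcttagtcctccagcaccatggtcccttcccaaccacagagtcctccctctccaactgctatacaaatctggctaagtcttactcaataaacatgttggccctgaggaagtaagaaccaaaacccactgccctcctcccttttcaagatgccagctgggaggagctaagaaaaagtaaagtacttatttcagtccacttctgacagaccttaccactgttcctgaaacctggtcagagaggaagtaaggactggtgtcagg

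The Ly6c1 window shown held 1 SMAD box and the Ly6c2 window none. A second start of each gene gave a window that overlaps the first (chr15:75048614-75048913 for Ly6c1, chr15:75111888-75112187 for Ly6c2), with 2 and 0 SMAD boxes, while 21% of 32851 promoter windows held one. None of the 4 windows held the core of the interferon-stimulated response element (GAAANNGAA, in 8.56% of all windows) or the gamma-activated site (TTCNNNGAA, in 8.3%), on either strand. A match is a description of letters and not of binding.

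The libraries held 73977669 to 84565450 counts. The cells were checked against the antigens by which the study identified them. Itgb1 (CD29) had mean levels of 254 FPKM in untreated MSCs and 375 to 385 FPKM in the other groups, and Cd44 had 39.5 to 57.5 FPKM, whereas Kit (CD117) stayed at 0 to 0.0117 FPKM and Pecam1 (CD31) at 0.0674 to 0.218 FPKM. Endothelial cells are another cell type that carries Sca-1. Their 13 markers summed to 2.07 to 2.28 FPKM in untreated MSCs and 1.38 to 1.4 FPKM with TGF-β1 alone. The sums were 1.28 to 1.92 FPKM with M-MDSC and 1.59 to 2.5 FPKM with G-MDSC supernatant. None of the 13 passed the filter, and the part of endothelial RNA in the values of Ly6a was not tested. Markers of other tissues were seen with supernatant. The 12 hepatocyte markers summed to 79.6 to 85.5 FPKM in the TGF-β1/G-MDSC libraries and 72.1 FPKM in TGF-β1/M-MDSC replicate 3, but to 0.298 and 0.378 FPKM in TGF-β1/M-MDSC replicates 1 and 2 and to at most 0.662 FPKM elsewhere. The 16 kidney tubule markers summed to 37.2 to 109 FPKM with supernatant, 29.3 to 30.9 FPKM in untreated MSCs and 4.71 to 4.85 FPKM with TGF-β1 alone. Aqp1, a water channel, made up most of the sum without supernatant, at means of 29.9 and 4.22 FPKM. Alb and Kap, the leading genes of these lists, were at 0 in every library without supernatant. Because Alb was also at 0 in TGF-β1/M-MDSC replicates 1 and 2, the values of members and the calls of interferon-stimulated genes are also given without replicate 3 where the supernatants are compared. Replicates 1 and 2 still held kidney markers, with sums of 37.2 and 46.3 FPKM. All TGF-β1/G-MDSC libraries held liver markers, so without replicate 3 liver RNA and the kind of supernatant cannot be told apart. The part of liver and kidney RNA in the values of the members was not tested.

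Ly6a was the dominant member, and TGF-β1 groups held far less of its mRNA than untreated MSCs. In untreated MSCs it was measured at 241, 243 and 251 FPKM (245 ± 5.35, SD, n = 3), which placed it at rank 203 of all genes by mean FPKM. With TGF-β1 alone the libraries read 16.7, 13 and 18.8 FPKM (16.2 ± 2.92, SD, n = 3), at rank 2994. All 3 TGF-β1 libraries lay far below the untreated ones, at 6.59% of their mean. The edgeR log2 fold change was -3.86 (SE 0.13), a 14.6-fold lower level, and the fall stood at place 25 among the 12016 genes tested when these were ordered by log2 fold change. In bulk RNA, fewer cells with the transcript and less transcript per cell cannot be told apart.

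With the supernatants Ly6a was higher than with TGF-β1 alone, without reaching the untreated level. The TGF-β1/M-MDSC libraries held 82.6, 92.1 and 103 FPKM (92.5 ± 10.1, SD, n = 3) and the TGF-β1/G-MDSC libraries 63.3, 68.4 and 69.2 FPKM (66.9 ± 3.2, SD, n = 3). No library of one group overlapped those of another, so the order was untreated, TGF-β1/M-MDSC, TGF-β1/G-MDSC and TGF-β1, with a gap between each pair of neighbours. The narrowest gap, between the lowest TGF-β1/M-MDSC library and the highest TGF-β1/G-MDSC library, was smaller than the range of the TGF-β1/M-MDSC libraries. The log2 fold change from TGF-β1 alone was 2.49 (SE 0.12) with M-MDSC supernatant and 2.02 (SE 0.12) with G-MDSC supernatant. Of the difference in mean FPKM between untreated and TGF-β1 libraries, 33.3% was back with M-MDSC supernatant (29% to 37.9% by library) and 22.2% with G-MDSC supernatant (20.6% to 23.1%). Both supernatant groups were read against the same TGF-β1 libraries.

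Ly6c1 and Ly6c2, which encode the 2 forms of the Ly6C antigen, had the same order of untreated over supernatant over TGF-β1 means but lower levels. Ly6c1 was measured at 11.5, 12.4 and 13.1 FPKM in untreated MSCs and at 0.862, 0.27 and 0.7 FPKM with TGF-β1, a log2 fold change of -4.27 (SE 0.32). It reached 1.97, 2.15 and 2.17 FPKM with M-MDSC supernatant and 1.33, 1.62 and 1.36 FPKM with G-MDSC supernatant. Its 4 groups did not overlap and stood in the same order as those of Ly6a. The share of the difference that was back was smaller than for Ly6a, 12.7% with the M-MDSC and 7.04% with the G-MDSC supernatant.

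Ly6c2 was near the limit of detection outside untreated MSCs. Its counts were 431, 439 and 393 in untreated MSCs and 0, 14 and 21 with TGF-β1. With M-MDSC supernatant they were 20, 38 and 47, and with G-MDSC supernatant 63, 21 and 79. The untreated libraries stood apart, at 1.59 to 1.83 FPKM, while the TGF-β1/M-MDSC libraries overlapped both the TGF-β1/G-MDSC and the TGF-β1 libraries. The log2 fold change for TGF-β1 was -5.11 (SE 0.82), and it ran from -5.86 without TGF-β1 replicate 3 to -4.53 without TGF-β1 replicate 1, the library with no count.

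Ly6e differed from the other members in that its mean with supernatant was not below the untreated mean. It was measured at 22.3, 10.1 and 8.83 FPKM in untreated MSCs and at 5.68, 2.26 and 3.5 FPKM with TGF-β1, a log2 fold change of -1.79 (SE 0.53). It reached 23.1, 44.6 and 41.7 FPKM with M-MDSC supernatant and 13.5, 6.89 and 25 FPKM with G-MDSC supernatant. Every TGF-β1/M-MDSC library exceeded every untreated library, the closest pair being 23.1 and 22.3 FPKM, whereas the TGF-β1/G-MDSC libraries overlapped the untreated ones and reached above the lowest TGF-β1/M-MDSC library. The log2 fold change from untreated was 1.44 (SE 0.52) with M-MDSC supernatant and 0.17 (SE 0.52) with G-MDSC supernatant, and the latter ran from -0.4 to 0.71 when single libraries were left out.

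Ly6d, a marker of early B lineage cells and of squamous epithelium, and Ly6k, known from testis, were hardly detected. Ly6d had 0, 8 and 14 counts in untreated MSCs, 0 in all TGF-β1 libraries, 0, 0 and 12 with M-MDSC supernatant and 0, 4 and 8 with G-MDSC supernatant. Ly6k had 4 counts in 1 untreated library and 0 in the other 11. A count of 0 allows up to 3 counts in a library, for counting error only and if each count is independent. Low counts were often multiples of 4, so the bound may be wider. No fold is given for these genes.

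**Figure D1:**
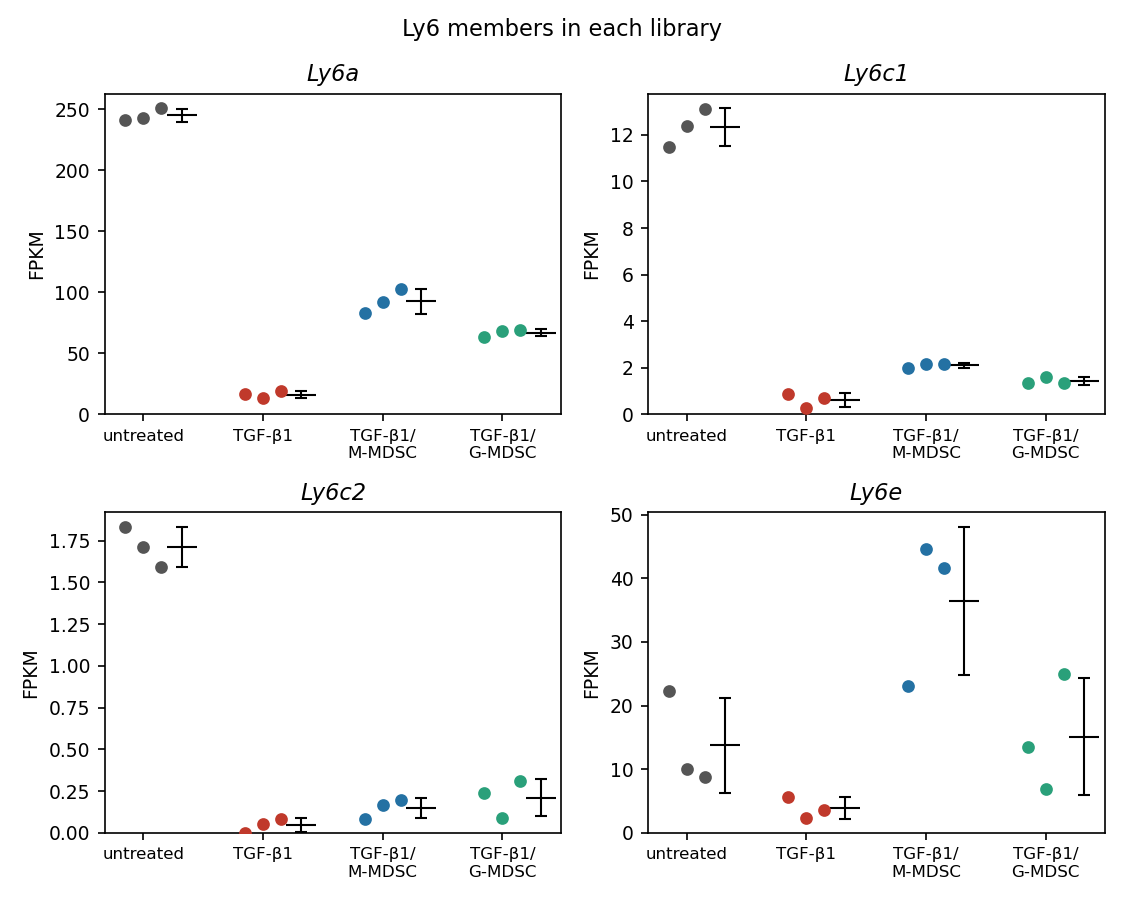
FPKM of Ly6a, Ly6c1, Ly6c2 and Ly6e on linear axes from 0, with a point per library and, beside each group, the mean and SD of its 3 libraries. Ly6a with TGF-β1 sits at 13 to 18.8 FPKM against 241 to 251 FPKM in untreated MSCs, and Ly6e spreads from 6.89 to 25 FPKM within TGF-β1/G-MDSC.

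All 4 members tested were lower in every TGF-β1 library than in any untreated library. Over all genes tested, 30.0% were lower in this way. With M-MDSC supernatant 3 of 4 were above all TGF-β1 libraries (13.4% of all genes) and with G-MDSC supernatant 4 of 4 (13.2%). The choice of the genes used these contrasts, so nothing is read from these counts.

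The make-up of the family differed between untreated MSCs and TGF-β1 alone, while the shares in the 3 groups with TGF-β1 overlapped. For Ly6a the G-MDSC range also reached the untreated one. The fall of Ly6a, by which the family was chosen, enters these shares. Ly6a supplied 87.1% to 91.4% of the summed FPKM of the 6 genes in untreated MSCs, 71.9% to 83.4% with TGF-β1, 66.2% to 76.6% with the M-MDSC and 72.1% to 88.8% with the G-MDSC supernatant. The share of Ly6e was 3.21% to 8.07% in untreated MSCs and already 14.5% to 24.4% with TGF-β1 alone, against 21.4% to 32.1% with the M-MDSC and 8.94% to 26.1% with the G-MDSC supernatant, so the ranges of the 3 groups with TGF-β1 overlapped. The share of Ly6c1 was 4.15% to 4.76% in untreated MSCs, 1.73% to 3.7% with TGF-β1, 1.48% to 1.83% with the M-MDSC and 1.41% to 2.1% with the G-MDSC supernatant. The summed level was 267 to 277 FPKM in untreated MSCs, 15.6 to 23.3 FPKM with TGF-β1, 108 to 147 FPKM with the M-MDSC and 77.1 to 95.9 FPKM with the G-MDSC supernatant.

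The comparison of the M-MDSC with the G-MDSC supernatant was the one contrast that the choice of the genes had not used, and it was tested. None of the 4 members passed an adjusted p of 0.05 in edgeR's quasi-likelihood test with Benjamini-Hochberg adjustment over all genes. Ly6a was 1.38-fold higher with M-MDSC supernatant (log2 difference 0.47, SE 0.12, 95% interval 0.21 to 0.73), higher in all 3 libraries than in any TGF-β1/G-MDSC library, with an unadjusted p of 0.00212 and an edgeR adjusted p of 0.277. The TGF-β1/M-MDSC libraries with Alb at 0, measured at 82.6 and 92.1 FPKM, also lay above all TGF-β1/G-MDSC libraries. But Kap was at 13.1 and 9.2 FPKM in those TGF-β1/M-MDSC libraries, and Alb was at 34.2 to 37.2 FPKM in the TGF-β1/G-MDSC ones. Without TGF-β1/M-MDSC replicate 3 the log2 difference was 0.39 with an edgeR adjusted p of 0.513. DESeq2 called Ly6a, with an adjusted p of 0.0111, and of the 11968 genes to which it gave an adjusted p it called 0.643% higher and 0.368% lower. Over all alternatives the adjusted p of edgeR, limma or DESeq2 ran from 0.0111 to 0.665.

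For Ly6e the log2 difference was 1.27 (SE 0.52, 95% interval 0.11 to 2.43), with an unadjusted p of 0.0345 and an edgeR adjusted p of 0.746. It was 1.16 without TGF-β1/M-MDSC replicate 3, 0.92 without TGF-β1/G-MDSC replicate 2 and 1.84 without TGF-β1/G-MDSC replicate 3. For Ly6c1 it was 0.55 (95% interval -0.084 to 1.19, edgeR adjusted p of 0.847), and for Ly6c2 -0.52 (95% interval -2.08 to 1.04, edgeR adjusted p of 0.971). Without TGF-β1/M-MDSC replicate 3 these were 0.53 and -0.76. These intervals leave room for differences of more than the size seen for Ly6a, so a like effect of the supernatants on these genes was not shown. At an unadjusted p under 0.05 stood 2 of 4 members, Ly6a and Ly6e, and 6.33% of all genes tested. Of all genes, 0.0999% were called higher and 0.0250% lower with M-MDSC supernatant, 15 in all. Ly6a and Ly6c1 had groups that did not overlap, all higher, as did 5.97% of all genes.

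The members differed in how well their replicate libraries agreed. The pooled SD within groups on the log2 CPM scale was 0.16 for Ly6a, 0.45 for Ly6c1 and 0.72 for Ly6e. For genes whose mean FPKM lay within 2-fold of each, the median SD was 0.067, 0.13 and 0.083. As large an SD was found for 115 of 716 genes near Ly6a, 309 of 4613 near Ly6c1 and 53 of 3467 near Ly6e. Ly6e thus had one of the wider spreads at its level, in groups of every treatment, and this limits each of its comparisons.

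The other genes of the family were followed to see which moved alike. Of a list of 38 further LY6/uPAR genes, 13 had no count in any library, 18 had 1 to 49 counts at most, 2 had more but did not pass the filter, and 5 were tested. With TGF-β1 3 of the 5 were called lower (17.9% of all genes) and 1 higher (16.1%). Ly6g and Ly6g2, 2 of the 3, passed the filter through the untreated libraries alone and so had to differ, and nothing is read from this count. Ly6g, the antigen of granulocytes, had a log2 fold change of -4.55 (SE 0.95), with 152 to 161 counts in untreated MSCs and 4 to 8 with TGF-β1. Ly6g2 had 2.19 ± 0.0504 FPKM in untreated MSCs and 0.509 ± 0.101 FPKM with TGF-β1 (SD, n = 3). Lynx1, a modulator of nicotinic receptors, fell from 7.46 ± 0.616 to 3.47 ± 0.122 FPKM. Plaur, the urokinase receptor, rose from 36.8 ± 2.6 to 56 ± 4.4 FPKM. Cd59a, an inhibitor of the complement attack complex, had 2.61 and 1.59 FPKM and was not called.

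No further family gene was called against TGF-β1 with either supernatant, or between the supernatants, by edgeR or by DESeq2 and limma. At an unadjusted p under 0.05 stood 1 of the 5 in each of these contrasts, higher with M-MDSC supernatant than with TGF-β1 (7.57% of all genes) or G-MDSC supernatant (3.56%), and lower with G-MDSC supernatant (9.25%). Ly6g had 0 to 13 counts with the M-MDSC and 0 to 18 with the G-MDSC supernatant. Ly6g2 had means of 0.394 and 0.263 FPKM there, below the 0.509 FPKM of TGF-β1 alone, and Lynx1 had 4.08 and 3.58 FPKM. With so few counts of Ly6g and so low a level of Ly6g2 in these groups a call was hardly possible, so nothing is read from its absence.

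The genes were also read in their order along chromosome 15. Between the first and the last family gene of the cluster (74714839 to 75598213) the annotation holds 50 genes, 21 of them members or genes of the family list, of which 10 reached 20 counts in some library. Ly6a2 and Ly6g6g, which also lie there, are not in the list, and had at most 8 and 0 counts. In 9 of these 10, all TGF-β1 libraries were below all untreated ones (30.0% of all genes that passed the filter), and the exception was Ly6i, with 21, 0 and 4 counts in untreated MSCs. The 9 include the 4 members, whose fall the choice had used, and Slurp1, Ly6g and Ly6f, which like Ly6i reached 20 counts only in untreated libraries, so nothing is read from this count. The genes of the interval outside the family that reached 20 counts moved in opposite directions. Them6 had 6.39 FPKM in untreated MSCs and 3.06 FPKM with TGF-β1, and its TGF-β1 libraries were all below the untreated ones. Cyp11b1, a steroid hydroxylase that did not pass the filter and had at most 97 counts, had 0.0719 FPKM in untreated MSCs and 0.196 FPKM with TGF-β1, and its TGF-β1 libraries were all above the untreated ones.

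**Figure D2:**
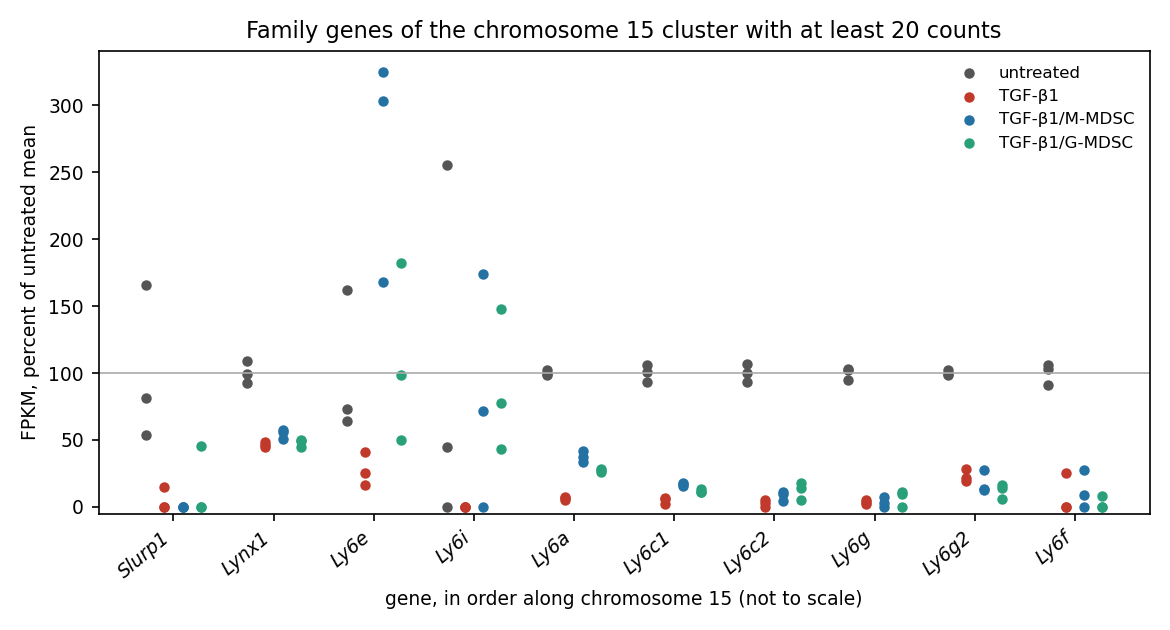
FPKM of the 10 family genes of the chromosome 15 cluster with at least 20 counts in a library, as percent of the untreated mean of the gene, with a point per library and genes in chromosomal order. With TGF-β1 (red) all but Ly6i, which has few counts, lie below their untreated libraries, and with supernatant Ly6e alone exceeds all of its untreated libraries, in TGF-β1/M-MDSC.

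The machinery that makes the GPI anchor was set beside its cargo. Of 30 genes for anchor synthesis and attachment 28 were tested, and with TGF-β1 1 rose and 3 fell (16.1% and 17.9% of all genes), with a median log2 fold change of -0.056. Pigk, the catalytic subunit of the transamidase that attaches the anchor, was lower by 0.4 on the log2 scale (SE 0.055), from 5.25 to 3.82 FPKM. Pigt, another transamidase subunit, had 35.1 and 27.9 FPKM. Pigm, a mannosyltransferase, was the one called higher, at 2.2 and 2.6 FPKM, and no gene was called higher without untreated replicate 2, without TGF-β1 replicate 1 or 3, with only the 2 groups in the fit, without scaling by trimmed means or with limma. In the other 3 contrasts edgeR, DESeq2 and limma called none of the 28, and 1 gene in each had an unadjusted p under 0.05, higher with the M-MDSC (7.57% of all genes) and the G-MDSC supernatant (7.91%) than with TGF-β1 alone, and between the supernatants lower on the M-MDSC side (2.77%). The summed level was 189 to 202 FPKM in untreated MSCs and 171 to 181 FPKM in the 9 other libraries.

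Interferon-stimulated genes were measured because Ly6a, Ly6c and Ly6e are known targets of interferons. Of 40 genes 36 were tested, and 34 fell with TGF-β1 while none rose (17.9% and 16.1% over all genes). Against TGF-β1 alone 33 of the 36 rose with M-MDSC supernatant (2.83% of all genes) and 33 with G-MDSC supernatant (3.10%), and none fell. The counts of 0 stayed 0 at an unadjusted p under 0.05 and with DESeq2. The median log2 fold changes of the list were -1.39 with TGF-β1, 3.35 with the M-MDSC and 2.75 with the G-MDSC supernatant, against medians over all genes of 0.00048, -0.013 and -0.014. Mx2, an antiviral GTPase, had mean levels of 0.807 FPKM in untreated MSCs, 0.0727 with TGF-β1, 7.47 with the M-MDSC and 4.21 with the G-MDSC supernatant. Usp18, which removes ISG15 from proteins, rose from 1.08 FPKM with TGF-β1 to 72.7 FPKM with the M-MDSC and 49.3 FPKM with the G-MDSC supernatant.

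Between the supernatants edgeR called 6 of the 36 higher with M-MDSC supernatant (0.0999% of all genes) and none lower (0.0250%). At an unadjusted p under 0.05 in edgeR 29 were higher and 1 was lower (3.56% and 2.77% of all genes). The list's median log2 difference was 0.47. Ifit3, an interferon-induced antiviral protein, had 29.9 FPKM with M-MDSC and 12.3 FPKM with G-MDSC supernatant (edgeR adjusted p of 0.00324). Cmpk2, a mitochondrial nucleotide kinase, had 1.77 and 1.02 FPKM (edgeR adjusted p of 0.0325). The count of calls was 3 without any one of TGF-β1/G-MDSC replicate 1 or 2 or TGF-β1/M-MDSC replicate 1 or 2, 5 without TGF-β1/M-MDSC replicate 3, and 23 with DESeq2, which called 0.643% of all genes higher. The log2 difference of Ly6a between the supernatants, also 0.47, equalled the list's median. Ly6a was called in this contrast by DESeq2 but not by edgeR.

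The members and these genes were set side by side in each library. Bst2 (tetherin), which was picked with Isg15 and Ifit1 after the values were seen, had 70.2 to 76.9 FPKM in untreated MSCs, 25.9 to 33.6 with TGF-β1, 584 to 618 with the M-MDSC and 395 to 443 with the G-MDSC supernatant. Its groups did not overlap, and both supernatant groups were above the untreated one. Of the 36 list genes tested, 31 were above all untreated libraries in every TGF-β1/M-MDSC library (19.4% of all genes) and 29 in every TGF-β1/G-MDSC library (19.1%). Below all untreated libraries were 3 with M-MDSC supernatant (28.0% of all genes), which are Ifit2, Rsad2 and Irf1, and 5 with G-MDSC supernatant (26.8%), which are the same genes with Ifit1 and Cmpk2. Ifit2 had 13.1 FPKM in untreated MSCs, 9.33 with M-MDSC and 8.68 with G-MDSC supernatant, and Rsad2 (viperin) had 2.51, 1.71 and 1.24 FPKM. Like those genes, Ly6a lay below its untreated level with both supernatants, by 1.37 (SE 0.12) and 1.84 (SE 0.12) on the log2 scale, and Ly6c1 by 2.51 and 3.06. The means of Ly6e stood in the same order as those of Bst2, but its TGF-β1/G-MDSC and untreated libraries overlapped, and the log2 difference between these groups turned from 0.17 to -0.063 without untreated replicate 3 and to -0.4 without TGF-β1/G-MDSC replicate 3. The libraries of Ly6e also spread more within groups, with a pooled SD of 0.72 against 0.11 on the log2 CPM scale.

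**Figure D3:**
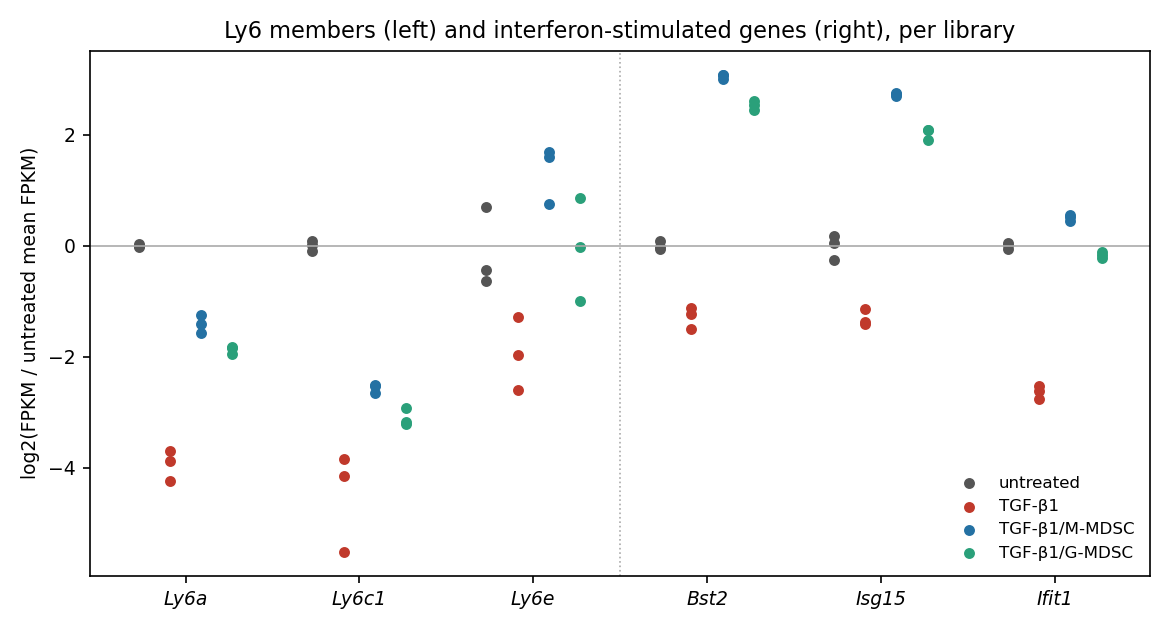
log2 of FPKM over the gene's untreated mean for 3 Ly6 members (left of the dotted line) and 3 interferon-stimulated genes (right), with a point per library. Bst2 and Isg15 lie above 0 with both supernatants, Ifit1 lies above 0 with M-MDSC and just below it with G-MDSC supernatant, Ly6a and Ly6c1 stay below 0, and the points of Ly6e spread within each group.

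Of the receptors, kinases and inhibitors of interferon signalling 8 of 9 were tested. With TGF-β1 3 fell (17.9% of all genes) and none rose (16.1%), and at an unadjusted p under 0.05 it was 4 and 0 (21.9% and 20.5%). Ifngr2, a chain of the interferon-gamma receptor, went from 3.78 to 2.59 FPKM and Jak1, a kinase shared by the receptors, from 27.7 to 20.7 FPKM. Socs3, a feedback inhibitor, was the 1 gene that edgeR called against TGF-β1 alone, higher with each supernatant (2.83% of all genes for M-MDSC, 3.10% for G-MDSC), at 6.89 FPKM with TGF-β1, 8.66 with M-MDSC and 9.36 with G-MDSC supernatant. Of the 8 none was called for M-MDSC with only the 2 groups in the fit, and for G-MDSC 2 were called by DESeq2 (4.58% of all genes), by limma on log2(FPKM + 1) (3.81%), without scaling by trimmed means and without TGF-β1/G-MDSC replicate 1. Between the supernatants none was called by edgeR, DESeq2 or limma, and none had an unadjusted p under 0.05.

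Sca-1 is a marker of fibroblast progenitors, so the genes known with it from that cell state were counted. Of 21 genes 13 were tested, and with TGF-β1 8 fell (17.9% of all genes) and 3 rose (16.1%), with a median log2 fold change of -0.9. Tnxb (tenascin XB) passed the filter through the untreated libraries alone and so had to differ, and nothing is read from its level with TGF-β1. Cd34, a sialomucin of progenitor cells, fell from 63.1 to 15.9 FPKM and Sema3c, a secreted semaphorin, from 6.21 to 1.15 FPKM. Nt5e (CD73) rose from 0.407 to 1 FPKM and Dcn (decorin) from 2.56 to 3.63 FPKM. With M-MDSC supernatant edgeR called none of the 13 higher (2.83% of all genes), which is near the background for a list of this size, and 2 fell (1.95%), Cd248 (endosialin) from 20.3 to 15.9 FPKM and Anxa3 from 47.6 to 43.3 FPKM. At an unadjusted p under 0.05 stood 4 rises and 4 falls (7.57% and 9.15% of all genes), and DESeq2 called 1 higher and 3 lower (3.92% and 3.02%). No test compared the list with Ly6a. With G-MDSC supernatant 3 rose (3.10% of all genes) and 4 fell (2.46%). Cd248 and Mfap5, a microfibril protein, had the largest falls, while Pdgfra stood higher, at 6.43 against 4.95 FPKM with TGF-β1. At an unadjusted p under 0.05 there were 5 rises and 6 falls with G-MDSC supernatant (7.91% and 9.25% of all genes). The small edgeR counts with supernatant rested on single libraries. There were 0 falls with M-MDSC supernatant without TGF-β1 replicate 1 or 2 or TGF-β1/M-MDSC replicate 1, and 1 without TGF-β1 or TGF-β1/M-MDSC replicate 3. With G-MDSC supernatant there were 0 rises without TGF-β1 replicate 2 or 3 and 1 without TGF-β1/G-MDSC replicate 3, and 2 falls without TGF-β1 replicate 1 or 3 or TGF-β1/G-MDSC replicate 1. Between the supernatants edgeR, DESeq2 and limma called none, and 5 had an unadjusted p under 0.05 (6.33% of all genes).

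**Figure D4:**
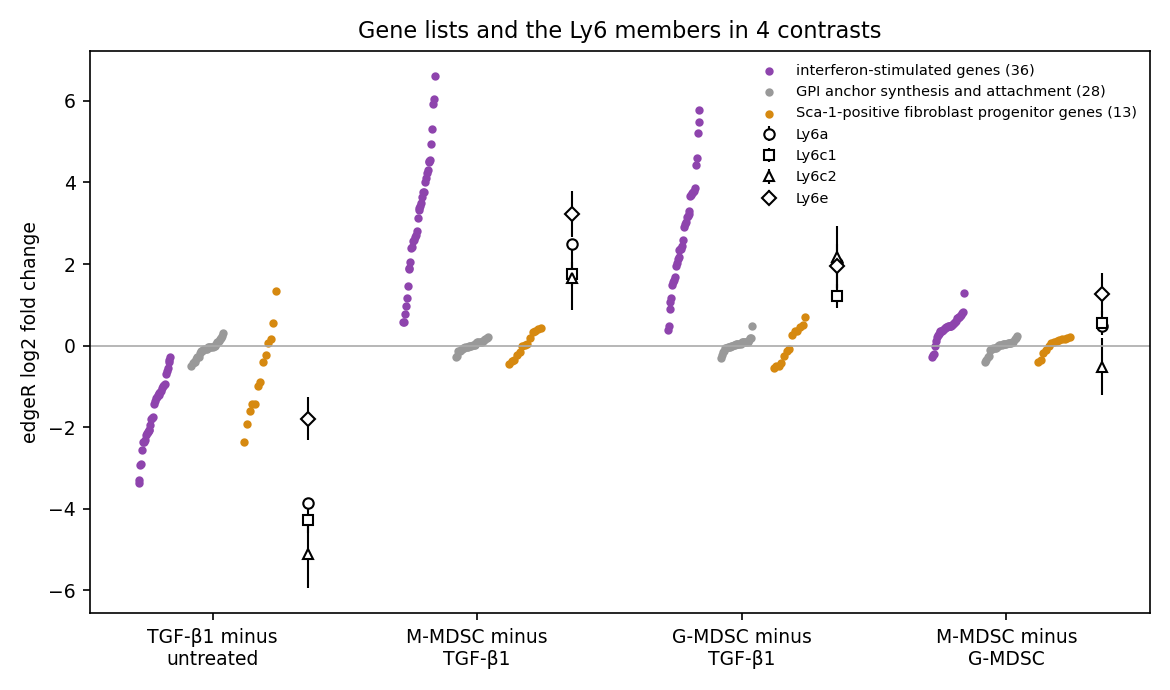
edgeR log2 fold changes of the tested genes of 3 lists (colored points, sorted within each list) and of the 4 tested Ly6 members (open symbols with SE) in 4 contrasts, where M-MDSC and G-MDSC stand for TGF-β1 with that supernatant. The interferon-stimulated genes lie below 0 for TGF-β1 and above 0 for both supernatants, with medians of -1.39, 3.35 and 2.75, and the GPI anchor genes stay close to 0 in each contrast.

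Likeness to a member was the root mean square difference of log2 fold changes from untreated over the 3 treated groups, each a mean of 3 libraries. The members themselves were left out, as were names of Gm and digits, ending in Rik or holding -ps. The nearest of the remaining tested genes were named. For Ly6a these were Alpl (0.62), the tissue-nonspecific alkaline phosphatase and itself a GPI-anchored enzyme, Ptpn22 (0.64), Itgb7 (0.64), C1ra (0.65) and U90926 (0.66). Alpl had 7.37 FPKM in untreated MSCs, 0.513 with TGF-β1, 1.44 with the M-MDSC and 1.4 with the G-MDSC supernatant. C1ra, a protease of the classical complement pathway, had 9.88, 1.29, 2.54 and 2.54 FPKM. None of these genes matched the depth and the return of Ly6a together. Alpl came near in its fall, -3.78 against -3.86, but stood lower with M-MDSC supernatant, at -2.31 against -1.37, whereas the other genes fell less, by 2.76 to 2.88 on the log2 scale.

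For Ly6c1 the nearest genes were Spon2 (0.49), Alpl (0.51), Prl2c2 (0.54), Gas1 (0.56), a GPI-anchored coreceptor of hedgehog proteins, and Wnk4 (0.58). Gas1 had 51.8 FPKM in untreated MSCs, 4.21 with TGF-β1, 5.6 with the M-MDSC and 6.26 with the G-MDSC supernatant. Prl2c2 (proliferin) had 74.5, 6.41, 11.7 and 12.2 FPKM. For Ly6e they were Mir8112 (0.14), H2-Q6 (0.31), Ube2l6 (0.35), Trim21 (0.43) and Tlr3 (0.44). Mir8112 had 1 to 16 counts in a library and its likeness rests on those few. Ube2l6, the conjugating enzyme for ISG15, had 5.31 FPKM in untreated MSCs, 1.65 with TGF-β1, 9.59 with the M-MDSC and 5.17 with the G-MDSC supernatant, and Tlr3, a receptor for double-stranded RNA, 1.08, 0.434, 2.17 and 1.54 FPKM. With 3 values a gene, the likeness is a description.

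**Figure D5:**
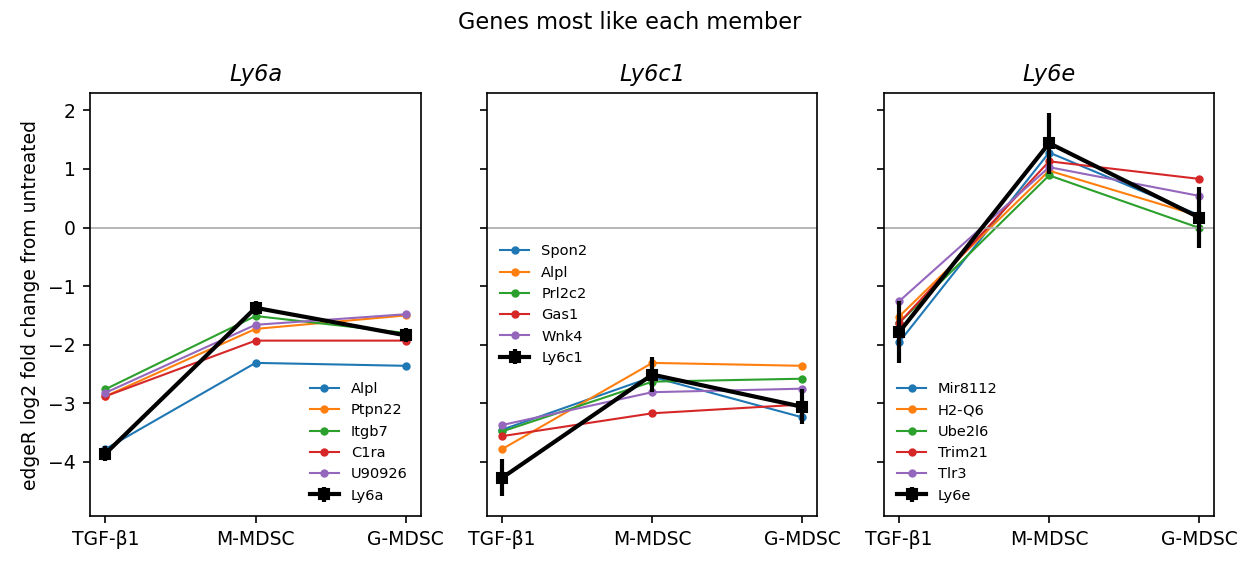
edgeR log2 fold changes from untreated MSCs in the 3 treated groups (M-MDSC and G-MDSC stand for TGF-β1 with that supernatant) for Ly6a, Ly6c1 and Ly6e (black, with SE) and the 5 genes most like each (colored). Genes near Ly6a and Ly6c1 stay below 0 in all 3 groups, while those near Ly6e lie above 0 with M-MDSC supernatant. Names left out of the ranking are not shown.

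Markers of blood cells were followed because Ly6c2, Ly6g and Ly6a are also expressed there. The 20 myeloid markers, Ly6g among them, summed to 4.66 to 5.74 FPKM in untreated MSCs and 2.31 to 3.36 FPKM with TGF-β1. They summed to 4.45 to 7.77 FPKM with the M-MDSC and 6.93 to 9.27 FPKM with the G-MDSC supernatant. Ly6g alone had 1.83 FPKM in untreated MSCs and 0.0681 FPKM with TGF-β1. Of 4 tested, edgeR called 1 lower with TGF-β1 (17.9% of all genes), Ly6g. It called 1 higher (16.1%), Csf1r, with a log2 fold change of 0.76 (SE 0.17, edgeR adjusted p of 0.00602). Ptprc (CD45), which all leukocytes carry, had at most 0.0157 FPKM in any library, and Itgam (CD11b), by which the suppressor cells were sorted, at most 0.0927 FPKM. Lyz2, a lysozyme of macrophages and granulocytes, moved with the supernatants, at a mean of 0.0572 FPKM with TGF-β1, 1.54 FPKM with the M-MDSC and 1.87 FPKM with the G-MDSC supernatant. It was the 1 gene of the 4 tested that edgeR called higher with each of them (2.83% and 3.10% of all genes). S100a9, a protein of neutrophils, was at 0 in every library without supernatant and had means of 0.576 and 1.13 FPKM with it, the latter from libraries at 0 to 3.4 FPKM. The 12 lymphocyte markers summed to 2.04 to 3.25 FPKM with no group apart. The part of blood cell RNA in the values of the members was not tested.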

How the data were processed

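Poly(A) mRNA of 12 libraries was sequenced with a strand-marking kit. Per the submitters' processing notes, cutadapt 1.9, HISAT2 2.0.4, StringTie 1.3.4d, edgeR and DESeq2 were used, with the build GRCm38. The authors deposited raw counts per gene and the FPKM calculated from them, and the counting tool and its strand setting are not given in the sources used here. A count of 0, which the table writes as a small FPKM, was read as 0. Multiples of 4 made up 44.3% of the nonzero counts up to 12, so counts divided by 4 were tried.

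All 12 libraries entered 1 fit with edgeR 4.0.16 (R 4.3.3; trimmed means of M-values, two-sided quasi-likelihood F test, Benjamini-Hochberg over 12016 genes, call at an adjusted p under 0.05). The variance between replicate libraries was 61.9 to 85.3 times that of counting error (chi-square per degree of freedom), so none was a duplicate. Depth was 73977669 to 84565450 counts. For FPKM, limma 3.58.1 was run on log2(FPKM + 1) and log2(FPKM + 0.1), and DESeq2 1.42.0 on the counts. The edgeR step was also run on simulated counts whose means and spread came from this fit. It recovered 91 of 106 2-fold changes and 94 of 94 4-fold changes, with 7 false calls.

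The members, lists and tests were chosen with earlier results of these data known. Genes named by rule are the members and the family genes that passed the filter. Of a list they are up to 2 called genes with the largest rise and 2 with the largest fall. The 5 ranked genes most like Ly6a, Ly6c1 or Ly6e were also named by rule. Other genes, among them Bst2, Isg15, Ifit1, Them6, Cyp11b1, Aqp1 and single cell type markers, were named outside this rule. Coding sequences are from GENCODE M21, which gives 94.2% of 55141 matched genes the same start and end as the table. Alternatives covered tool, scaling, filter, groups in the fit, replicate block, pseudocount, the rule of the study (over 2-fold, unadjusted p under 0.05) and single libraries left out. Python 3.11.15 with pandas 2.3.3 made the tables. One gene of a list is counted but not described here.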

Additional observations from a re-analysis of the deposited data

How the results depend on the processing

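Of 360 recomputed log2 fold changes of the members, 338 kept their direction and their side of the threshold or stayed within the spread between libraries. The sign changed in 2, both of Ly6e with G-MDSC supernatant against untreated (0.17), at -0.063 without untreated replicate 3 and -0.4 without TGF-β1/G-MDSC replicate 3. DESeq2 alone called Ly6a between the supernatants, at the same log2 difference of 0.47, so that 1 member was called higher, as with the study's rule, which called 1, Ly6e. On log2(FPKM + 1), which shrinks low values by its construction, Ly6c1 had log2 fold changes of -3.07 for TGF-β1 against untreated, 0.96 for M-MDSC supernatant and 0.61 for G-MDSC supernatant against TGF-β1, and -2.1 and -2.45 for the supernatants against untreated. Ly6c2 had -1.38, 0.13, 0.21, -1.24 and -1.17 in the same order. On log2(FPKM + 0.1) Ly6c2 had -3.69 for TGF-β1, 0.79 and 1.07 against TGF-β1, and -2.9 for M-MDSC supernatant against untreated. With single libraries left out, Ly6c2 ran from -5.86 to -4.53 for TGF-β1, from 1.07 to 2.4 and from 1.59 to 2.91 for the M-MDSC and G-MDSC supernatants against TGF-β1, and from -3.71 to -3.2 for M-MDSC supernatant against untreated.

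Of 640 recomputed counts of the lists, 587 stayed within 1.5 times. Interferon-stimulated genes called higher between the supernatants on the M-MDSC side, 6 in the report, numbered 23 with DESeq2, 15 with only the 2 groups in the fit, 16 on log2(FPKM + 1), 1 by the study's rule, 3 with the replicate block and 3 to 5 with single libraries left out. The cause was not tested. GPI anchor genes called higher with TGF-β1 numbered 0 with no scaling by trimmed means, with only the 2 groups, on both FPKM scales and by the study's rule, which also called 0 lower, and 0 to 1 with single libraries left out. Interferon receptors and kinases called higher with G-MDSC supernatant numbered 2 with DESeq2, with no scaling and on both FPKM scales, 0 by the study's rule and 1 to 2 with single libraries left out. With M-MDSC supernatant they numbered 0 with only the 2 groups and by the study's rule, which called 0 lower with TGF-β1 and 0 further family genes higher.

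Progenitor genes called lower with M-MDSC supernatant numbered 1 with no scaling and with the replicate block, 0 with no filter, with only the 2 groups and by the study's rule, and 0 to 2 with single libraries left out. Those called higher numbered 1 with DESeq2 and 0 to 1 with single libraries left out. With G-MDSC supernatant 2 were lower with only the 2 groups and on both FPKM scales, and 2 to 3 with single libraries left out, while 0 to 3 were higher. The study's rule called 0 in either direction there, and 1 higher and 5 lower with TGF-β1. The replicate numbers did not pair the libraries: residuals of libraries with the same number had a mean correlation of 0.00172 (18 pairs, -0.0981 to 0.0862), and 3 of 12 libraries correlated best with their own number. The replicate block changed no call of a member.

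Depth sets no limit for Ly6a, while Ly6c2, Ly6d and Ly6k had too few counts with TGF-β1 for a firm fold. With 3 libraries a group, the interval of Ly6e between the supernatants spans 0.11 to 2.43 on the log2 scale.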
